A study of Mus musculus with 24 samples.

Results

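The genes described here are 8 members of the antioxidant programme that the transcription factor NRF2 controls: Nfe2l2, which encodes NRF2 itself, and its targets Slc7a11, Gclc, Gclm, Nqo1, Txnrd1, Srxn1 and Prdx1. They were chosen by name among the non-control probes of the array, where 9 probes carried these 8 names (2 of them for Prdx1), of 55681 probes and 22372 named genes in all. Values came from 24 1-colour Agilent arrays of mouse RNA, 4 in each of 6 groups. Every mouse was a C57BL/6 male aged 10 weeks. The groups were tumour-associated macrophages (TAM) of mice 14 days after sepsis had been induced, TAM of naive mice, unpolarized marrow macrophages (M0) from post-sepsis mice, and M1, M2 and M0 cultures from naive mice. TAM had been collected on a 70/30 Percoll gradient with 1 hour of adhesion to plastic. Marrow cells had been grown for 7 days in medium with 20% L929 supernatant, a source of the growth factor M-CSF, and 10% serum. M1 cultures received interferon-gamma (50 ng/mL) and lipopolysaccharide (10 ng/mL) on day 3, and M2 cultures received IL-10 (20 ng/mL), per their label. The labels did not name the tumour, and the submitters had picked the 4 best RNA samples of each group from several experiments without saying which sample came from which. P-values here reflect only how these chosen samples vary.

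NRF2 is held in the cytoplasm by KEAP1, which hands it to a ubiquitin ligase for degradation. Oxidants and electrophiles modify KEAP1, and NRF2 then accumulates, pairs with a small MAF protein and binds antioxidant response elements near its targets, for which the repressor BACH1 competes. Its targets import cystine, make glutathione, reduce thioredoxin and peroxiredoxins and detoxify quinones. Activated macrophages make large amounts of reactive oxygen and nitrogen species and also itaconate, a product of Acod1 that can modify KEAP1. Because NRF2 is controlled mainly as a protein, its transcript is not a measure of its activity.

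The stretches before the start site are shown for 4 members that were higher in M1 than in M2 cultures and whose single window held at least 1 of the motifs searched: Prdx1, Srxn1, Gclm and Slc7a11. The window of Nqo1, called in both M1 and M2 against M0 naive, held none of these motifs and is not shown, nor are the 3 windows of Txnrd1. Each is the 250 bases before the RefSeq start in GRCm38.p6, written 5' to 3' on the gene's own strand. Capitals mark matches on either strand to the core of the antioxidant response element (TGACNNNGC), to the AP-1 heptamer (TGACTCA) or to an amino acid response element bound by ATF4 (TGATGCAA). A match on the opposite strand reads as the reverse complement. Prdx1 is at chr4:116685349-116685598 (forward strand), Srxn1 at chr2:152105274-152105523 (forward), Gclm at chr3:122245307-122245556 (forward) and Slc7a11 at chr3:50443614-50443863 (reverse).
Prdx1: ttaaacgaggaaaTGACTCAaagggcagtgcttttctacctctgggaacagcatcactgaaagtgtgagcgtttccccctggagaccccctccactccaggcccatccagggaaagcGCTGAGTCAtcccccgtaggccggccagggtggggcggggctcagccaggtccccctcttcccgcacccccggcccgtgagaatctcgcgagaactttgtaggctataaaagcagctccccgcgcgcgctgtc
Srxn1: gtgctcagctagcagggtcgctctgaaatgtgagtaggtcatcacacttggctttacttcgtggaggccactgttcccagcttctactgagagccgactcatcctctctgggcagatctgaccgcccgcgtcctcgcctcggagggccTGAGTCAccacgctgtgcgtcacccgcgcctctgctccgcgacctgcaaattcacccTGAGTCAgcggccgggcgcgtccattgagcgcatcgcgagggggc
Gclm: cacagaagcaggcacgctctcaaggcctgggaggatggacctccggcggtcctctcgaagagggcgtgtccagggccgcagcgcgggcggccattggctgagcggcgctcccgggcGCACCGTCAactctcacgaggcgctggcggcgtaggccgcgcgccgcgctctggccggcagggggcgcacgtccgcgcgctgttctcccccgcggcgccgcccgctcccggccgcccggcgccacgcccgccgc
Slc7a11: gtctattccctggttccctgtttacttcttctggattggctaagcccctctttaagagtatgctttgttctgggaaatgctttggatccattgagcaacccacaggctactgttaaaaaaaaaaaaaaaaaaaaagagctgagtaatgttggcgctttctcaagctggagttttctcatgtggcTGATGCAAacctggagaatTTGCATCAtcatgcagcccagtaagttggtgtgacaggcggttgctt

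The promoter table matched 7 of the 8 members, with 9 windows of 300 bases (250 before and 50 after the start), and Gclc was not among them. The antioxidant core was found in Prdx1, Gclm, Nfe2l2, in 1 of the windows of Txnrd1 and in Srxn1 after the start site, and 12.4% of all 32851 promoter windows held it. In Prdx1 it overlapped an AP-1 heptamer, both on the strand opposite to the gene, at 133 to 125 bases before the start. The AP-1 heptamer occurred at 2 places each in Srxn1 and Prdx1, and in 5.2% of all windows. The amino acid response element occurred at 2 places in Slc7a11, and in 0.895% of all windows. The motifs were chosen with expression values of these genes known, and a match says only that these letters are present.

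Levels below are log2 processed intensities minus the array's own 75th percentile, so 0 is a bright probe, and a level can be compared between arrays but not between genes. Errors on levels are SDs, and errors on log2 changes are SEs of limma fits, with p-values adjusted over all genes tested and a threshold of 0.05. A gene without a symbol is a single probe in these counts. Where groups are said not to overlap, this describes the arrays, and the share of all genes without overlap is not given. TAM naive replicate 2, excluded by the submitters for its RNA, entered no fit, so TAM naive has n = 3 and the other groups n = 4. Between 56.9% and 69.7% of probes were well above background on the 23 arrays. The 10 M1 markers averaged 4.92 to 5.11 on M1 arrays and at most -0.37 on the other cultures, and the 8 markers of alternative activation averaged 4.70 to 4.91 on M2 arrays and at most -0.57 on the other cultures. The M2 label names IL-10, but of 6 IL-10 response genes 1 rose and 3 fell in M2 against M0 naive.

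The probes lie, on mm9, at chr3:50169700-50169759 (Slc7a11), chr9:77641296-77641355 (Gclc), chr8:109912440-109912499 (Nqo1), chr2:151937009-151937068 (Srxn1), chr10:82360230-82360289 (Txnrd1) and chr2:75513771-75513830 (Nfe2l2). The 60 bases of the Gclm probe spread over 2636 bases at chr3:121962174-121964809. Prdx1 had a brighter probe at chr4:116371818-116371877, used throughout, and another at chr4:116372422-116372481.

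**Figure D1:**
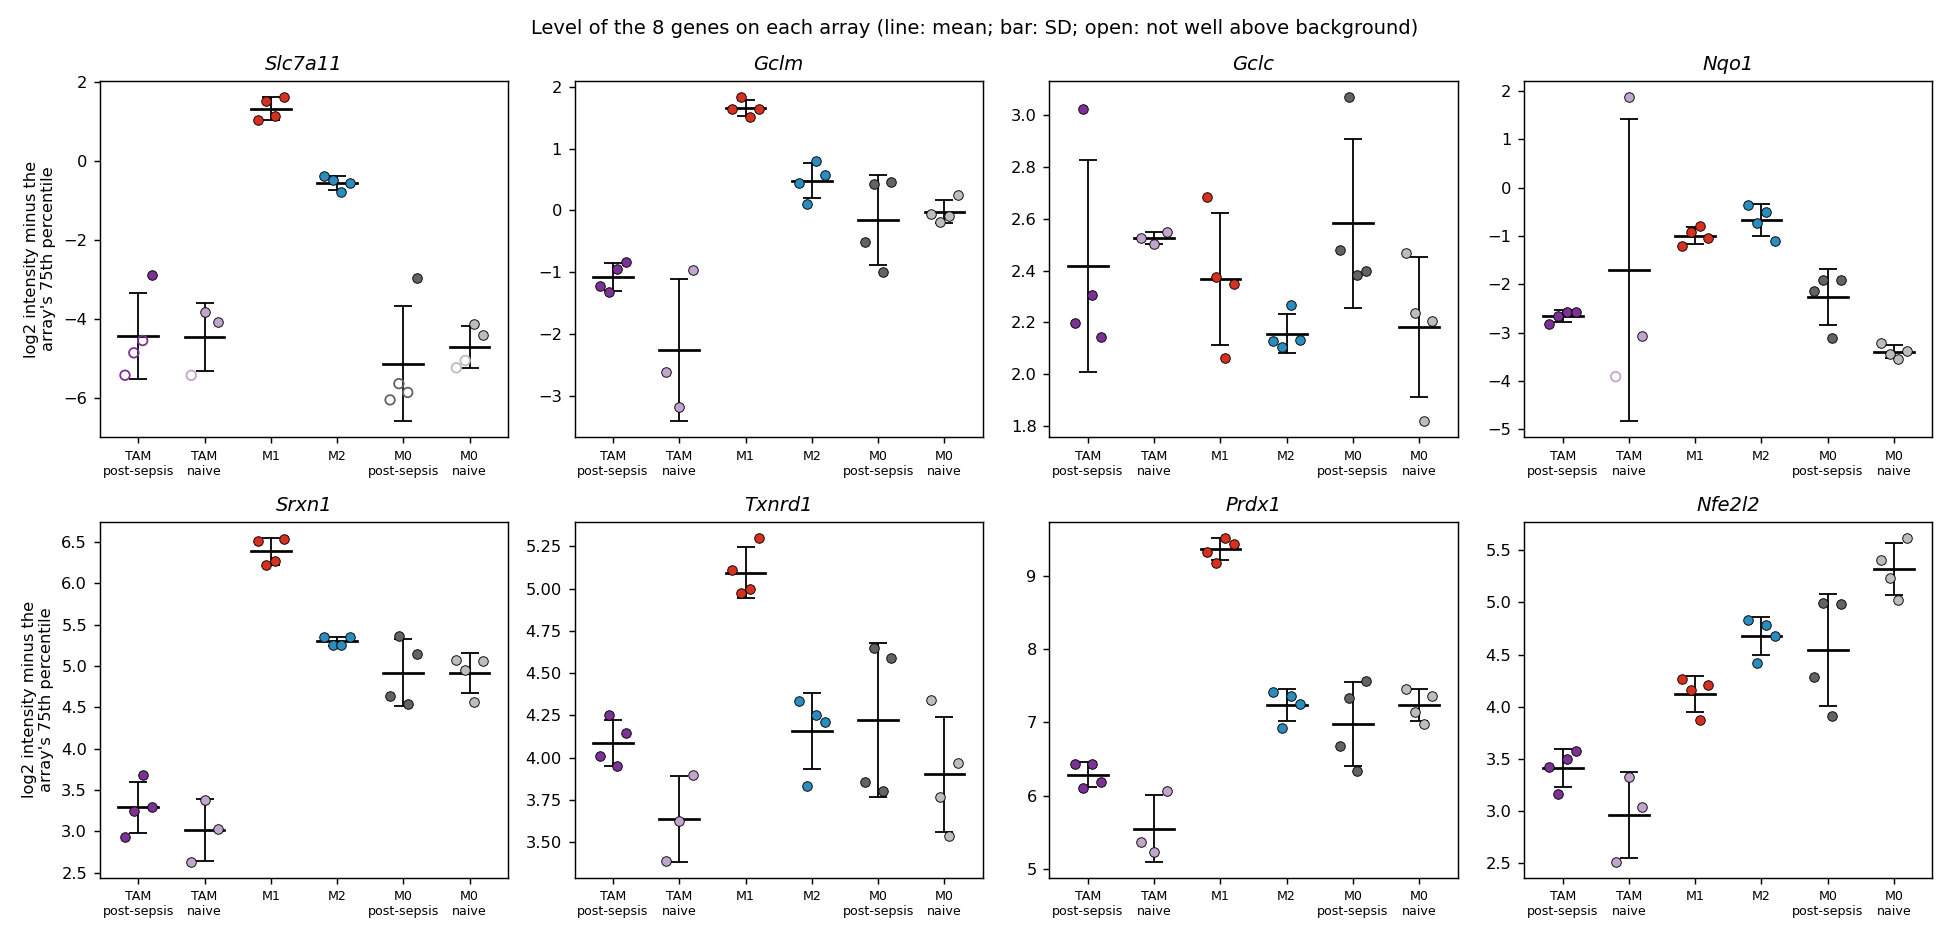
Level of each of the 8 genes on each of the 23 arrays (y axis, log2 intensity minus the array's 75th percentile; x axis, the 6 groups; 1 point per array). Lines are means, bars SDs, and open points probes not well above background. M1 points lie above those of M0 naive for Slc7a11, Gclm, Nqo1, Srxn1, Txnrd1 and Prdx1, and below them for Nfe2l2.

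The M1 cultures were set against M0 naive cultures to ask how interferon-gamma with lipopolysaccharide changed these genes. Of the 8 members, 6 were called higher in M1, 1 fell and 1 did not pass, where 27.8% of all 29564 genes were called, 13.1% higher and 14.7% lower. The genes called higher covered cystine import, glutathione synthesis, quinone reduction and thiol reduction, and the gene that fell was Nfe2l2 itself. One of these calls, that of Slc7a11, passed the filter on dim probes only through M1, the group where it was high. Beside these changes, 7 of 10 neutrophil markers were lower in M1 and 1 higher, and 6 of 11 macrophage markers lower and 1 higher. The lower neutrophil markers include Ltf and Retnlg, each well above background on 0 M1 and 4 M0 naive arrays. They passed the filter on dim probes only through M0 naive, where they were high. Macrophage markers averaged 4.36 to 4.55 on M1 arrays, against 5.06 to 5.18 on M0 naive arrays, and neutrophil markers 0.084 to 0.21 on M1 arrays, against 1.66 to 2.03 on M0 naive arrays. Their part in the results was not tested.

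Slc7a11, the light chain of the antiporter that exchanges cystine for glutamate, had the largest difference of the members. It was at 1.04, 1.51, 1.14 and 1.61 on the M1 arrays, against -5.23, -5.04, -4.13 and -4.39 on the M0 naive arrays. The groups lay far apart, but the probe was well above background on only 2 of the 4 M0 naive arrays, so the size of the difference is uncertain and no test is given for it. Within the 3 slides the groups differed by 5.30 to 6.60.

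Cystine feeds glutathione synthesis, whose first and limiting step is made by glutamate-cysteine ligase, a pair of the catalytic subunit Gclc and the modifier subunit Gclm. Gclm was at 1.65, 1.84, 1.52 and 1.65 in M1, against -0.05, -0.19, -0.09 and 0.24 in M0 naive. All M1 arrays lay above all M0 naive arrays, and the change was 1.68 ± 0.29 (adjusted p = 2.51e-04). Gclc was at 2.68, 2.38, 2.06 and 2.35 in M1, against 2.47, 2.24, 1.82 and 2.20 in M0 naive. Those ranges overlapped, and the change of 0.18 ± 0.20 did not pass (95% confidence interval -0.24 to 0.61, adjusted p = 0.607). The modifier subunit thus rose where the catalytic subunit did not pass, although the difference between these changes was not tested.

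Nqo1, which reduces quinones by a pair of electrons at once, was at -1.21, -0.92, -0.79 and -1.03 in M1, against -3.22, -3.44, -3.54 and -3.38 in M0 naive. The rise of 2.40 ± 0.25 was more than the whole spread of either group (adjusted p = 2.11e-06). Its size depended on the processing, and it lay between 1.33 and 2.48 over the alternatives run.

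The thiol-reducing members rose together. Prdx1, a peroxiredoxin that reduces hydrogen peroxide, was at 9.33, 9.18, 9.52 and 9.44 in M1, against 7.46, 7.14, 6.98 and 7.36 in M0 naive, a change of 2.13 ± 0.24 (adjusted p = 5.07e-06). Its other probe gave a larger change, 3.16 ± 0.19 (adjusted p = 5.58e-09). Srxn1, the sulfiredoxin that repairs over-oxidised peroxiredoxins, was at 6.52, 6.23, 6.27 and 6.54 in M1, against 5.07, 4.96, 4.56 and 5.07 in M0 naive. Its change was 1.48 ± 0.20 (adjusted p = 2.62e-05). Txnrd1, the reductase that recharges thioredoxin with NADPH, was at 5.11, 4.98, 4.996 and 5.30 in M1, against 4.34, 3.77, 3.54 and 3.97 in M0 naive, and changed by 1.19 ± 0.23 (adjusted p = 9.13e-04). For Prdx1, Srxn1 and Txnrd1 no M1 array overlapped an M0 naive array.

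Nfe2l2 went the other way. Its probe was at 4.26, 4.16, 3.87 and 4.21 in M1, against 5.41, 5.23, 5.03 and 5.62 in M0 naive. The groups did not overlap, and the change was -1.20 ± 0.24 (adjusted p = 9.85e-04). Within slides it ran between -1.37 and -1.06, and the rises of Nqo1 (2.25 to 2.51), Prdx1 (2.02 to 2.16), Gclm (1.57 to 2.02), Srxn1 (1.27 to 1.70) and Txnrd1 (0.81 to 1.36) also kept their direction on each slide.

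The M2 cultures moved fewer members. Of the 8, 2 were called higher than in M0 naive, 0 fell and 6 did not pass, where 11.9% of 29756 genes were called, 4.88% higher and 7.03% lower. Slc7a11 was at -0.39, -0.49, -0.78 and -0.56 in M2, all well above background and all above the M0 naive arrays. Because only 2 of 4 M0 naive arrays showed it above background, it passed the filter through M2 alone, and its size is uncertain here too. Nqo1 was at -0.35, -0.73, -0.49 and -1.11 in M2, also above all M0 naive arrays, with a change of 2.72 ± 0.25 (adjusted p = 2.65e-06). Within slides Slc7a11 differed by 3.48 to 4.84 and Nqo1 by 2.52 to 2.97. Over the alternatives run the Nqo1 change lay between 1.59 and 2.87. Of the cell type markers, 6 of 10 neutrophil markers were lower in M2 and 0 higher, and 4 of 11 macrophage markers lower and 1 higher. The lower neutrophil markers include Ly6g, above background on 0 M2 and 4 M0 naive arrays, which passed the filter only through M0 naive. The part of these markers was not tested.

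The thiol genes did not pass in M2. Prdx1 was at 7.42, 6.92, 7.37 and 7.25 in M2, a range that overlapped that of M0 naive, and its change was 0.005 ± 0.24 (95% confidence interval -0.52 to 0.53). Srxn1 (0.39 ± 0.20), Txnrd1 (0.26 ± 0.23), Gclm (0.51 ± 0.29) and Gclc (-0.03 ± 0.20) had adjusted p-values between 0.257 and 0.961, although the Srxn1 arrays of M2 all lay above those of M0 naive. Nfe2l2 was at 4.83, 4.42, 4.79 and 4.68 in M2, and every M2 array lay below every M0 naive array. Its change of -0.64 ± 0.24 did not pass (adjusted p = 0.1), but it passed with quantile scaling (adjusted p = 0.00698) and with only the compared groups in the fit (adjusted p = 0.0468).

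**Figure D2:**
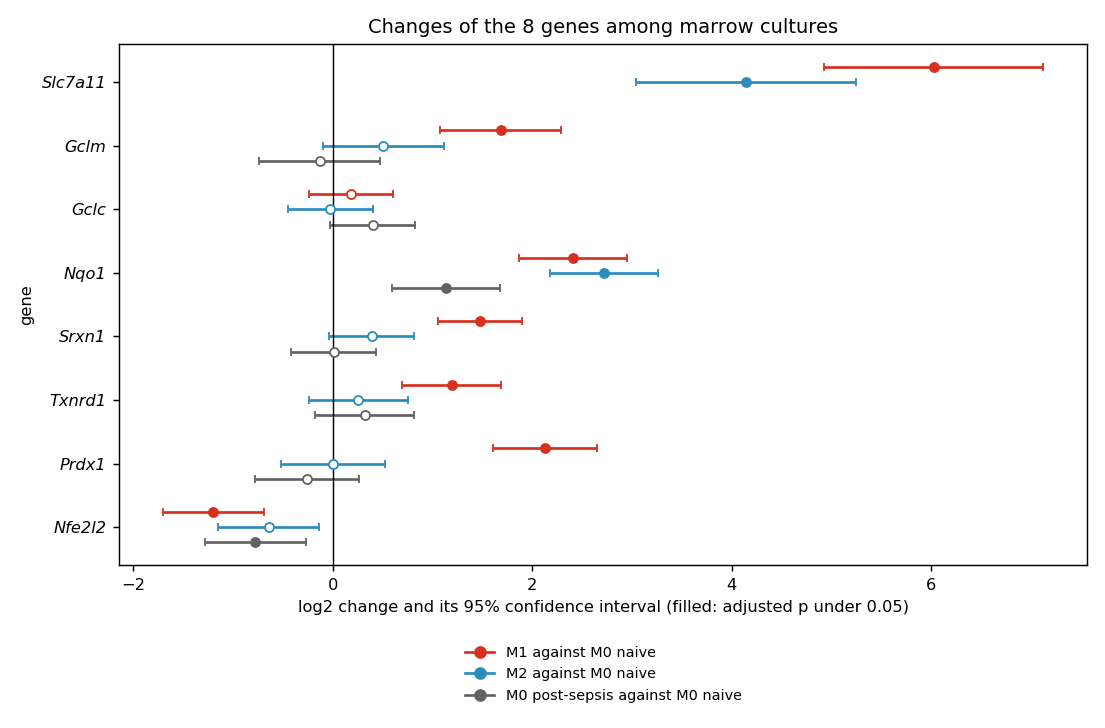
Log2 change (x axis) of each of the 8 genes (y axis) in M1, M2 and M0 post-sepsis cultures, each against M0 naive, with 95% confidence intervals. Filled points have an adjusted p under 0.05. Slc7a11 passed the filter on dim probes only through M1 or M2 and was not tested in M0 post-sepsis. In the main fits Nqo1 changed by 2.40 in M1 and 2.72 in M2, whereas Prdx1 changed by 2.13 in M1 and 0.005 in M2.

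M1 and M2 cultures were compared directly, since both had been set against the same M0 naive arrays. Of the 8 members, 5 were higher in M1 and 0 lower, where 31% of 28755 genes were called, 15.5% higher and 15.4% lower. Prdx1 was higher in M1 by 2.13 ± 0.24 (adjusted p = 5.08e-06), Slc7a11 by 1.88 ± 0.52 (adjusted p = 0.0105), Gclm by 1.18 ± 0.28 (adjusted p = 0.0044), Srxn1 by 1.09 ± 0.20 (adjusted p = 4.53e-04) and Txnrd1 by 0.94 ± 0.23 (adjusted p = 0.00533). Every M1 array of these 5 genes, which the test had already called, lay above every M2 array. The share of all genes with such a gap is not given, so this adds no separate support. The SE of Slc7a11 comes from the fit shared by all cultures, including M0 arrays where its probe was not well above background. Its SD was 0.28 in M1 and 0.17 in M2, against 0.52 in M0 naive and 1.45 in M0 post-sepsis. Nqo1 averaged -0.99 ± 0.18 in M1 and -0.67 ± 0.33 in M2 (SD, n = 4 each). Its difference of -0.32 ± 0.25 did not pass (adjusted p = 0.403), with a 95% confidence interval of -0.86 to 0.22. Nfe2l2 differed by -0.55 ± 0.24 (adjusted p = 0.0926), and passed with quantile scaling (adjusted p = 0.00707) and with only the compared groups in the fit (adjusted p = 0.0167).

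M0 cultures from post-sepsis marrow were set against M0 naive cultures to see whether earlier sepsis left a mark on these genes. Among the 7 members that passed the filter on dim probes, Nqo1 rose and Nfe2l2 fell, and 5 did not pass, where 11.9% of 29698 genes were called, 5.98% higher and 5.91% lower. Nqo1 was at -2.13, -1.90, -3.11 and -1.90 in M0 post-sepsis, against -3.22, -3.44, -3.54 and -3.38 in M0 naive. All post-sepsis arrays were above all naive arrays, replicate 3 only just, and the change was 1.13 ± 0.25 (adjusted p = 0.00708). It was 0.84 and 1.32 within the slides that held both groups. It did not pass with quantile scaling (0.995 ± 0.37, adjusted p = 0.0871) or with only the compared groups in the fit (adjusted p = 0.0762). Over the alternatives run it lay between 0.696 and 1.415.

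Nfe2l2 was at 4.29, 4.99, 3.92 and 4.98 in M0 post-sepsis, all below the 5.41, 5.23, 5.03 and 5.62 of M0 naive. The change was -0.78 ± 0.24 (adjusted p = 0.0448), and -1.22 and -0.42 within slides 2 and 3. The call was lost without M0 post-sepsis replicate 1 or 3 or M0 naive replicate 1, 2 or 4, with adjusted p-values up to 0.143, and also without a filter on dim probes (adjusted p = 0.0925) and with only the compared groups in the fit (adjusted p = 0.25). Gclc (0.40 ± 0.20), Txnrd1 (0.32 ± 0.23), Srxn1 (0.01 ± 0.20), Gclm (-0.13 ± 0.28) and Prdx1 (-0.26 ± 0.24) had adjusted p-values between 0.273 and 0.992. In every member but Gclc, including Nqo1, replicates 2 and 4 of M0 post-sepsis, on slide 3, lay above replicates 1 and 3, on slide 2, and the part of the slide in this was not tested. With the slide as a block, both Nqo1 and Nfe2l2 still passed at an adjusted p of 0.05. Slc7a11 was at -6.04, -5.63, -5.85 and -2.96 in M0 post-sepsis, where only the last was well above background, and it was not tested. Among the 11 macrophage markers tested, 8 fell in M0 post-sepsis and 0 rose, and of 10 neutrophil markers 5 fell and 1 rose, and their part in these results was not tested. In bulk RNA, fewer cells of a type and less RNA per cell cannot be told apart.

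Around these members, the list of glutathione synthesis and use had 9 of 14 tested genes higher and 1 lower in M1 against M0 naive. For this and the following lists, the shares of all genes called were 13.1% higher and 14.7% lower in M1. They were 4.88% and 7.03% in M2, and 5.98% and 5.91% in M0 post-sepsis, and no list was tested as a set. Ggct, which breaks down gamma-glutamyl dipeptides, rose by 5.14 ± 0.24, Glrx (glutaredoxin) by 2.61 ± 0.24, and Gsr, which regenerates reduced glutathione, by 2.02 ± 0.21. Gpx3, a secreted glutathione peroxidase, fell by 1.51 ± 0.29. In M2 the same list had 6 of 15 higher and 1 lower: Glrx rose by 1.25 ± 0.24 and Gsr, against its direction in M1, fell by 0.71 ± 0.21 (adjusted p = 0.0344). Of these 6, Gpx7 passed the filter on dim probes only through M2, being above background on 3 M2 and 0 M0 naive arrays. In M0 post-sepsis only Gss, the second enzyme of glutathione synthesis, was called in this list (0.85 ± 0.23, adjusted p = 0.0226).

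The thioredoxin and peroxiredoxin list was split in M1, with 5 of 16 genes higher and 5 lower. Prdx6 (2.07 ± 0.21), Prdx5 (1.87 ± 0.16) and Txn1 (0.94 ± 0.18) rose there, while Sesn1, a sestrin, fell by 5.18 ± 0.20 and Prdx4, the peroxiredoxin of the endoplasmic reticulum, by 1.59 ± 0.16. In M2, 0 of these 16 rose and 3 fell. The phase II and aldehyde enzymes had 1 of 15 higher and 7 lower in M1: Ephx1, an epoxide hydrolase, fell by 3.80 ± 0.20 and the quinone reductase Nqo2 by 1.58 ± 0.20, while Akr1a1 rose by 0.96 ± 0.17. In M2, Ephx1 rose by 2.12 ± 0.20. Glutathione transferases had 5 of 17 higher and 6 lower in M1 and 7 of 17 higher and 5 lower in M2. The suppliers of NADPH, which these reductases consume, had 3 of 12 higher and 4 lower in M1, with malic enzyme Me1 up by 2.22 ± 0.21 and Idh1 down by 3.01 ± 0.19.

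Of the regulators, 5 of 15 rose and 4 fell in M1. Bach1, the repressor that competes for antioxidant elements, fell by 1.44 ± 0.22 in M1 (adjusted p = 1.11e-04) and by 0.99 ± 0.23 in M0 post-sepsis (adjusted p = 0.00783), and its change in M2 did not pass (-0.39 ± 0.22). Sqstm1, the autophagy receptor p62 that binds KEAP1, rose by 2.17 ± 0.30 in M1, and the small MAF genes Maff and Mafg by 3.47 ± 0.24 and 0.69 ± 0.21. Keap1 itself did not pass in M1 (0.50 ± 0.22), M2 (-0.12 ± 0.22) or M0 post-sepsis (0.27 ± 0.22). Hmox1, the heme oxygenase controlled by NRF2 and BACH1, rose in all 3 comparisons: by 3.56 ± 0.59 in M1, 2.12 ± 0.59 in M2 (adjusted p = 0.027) and 2.34 ± 0.59 in M0 post-sepsis (adjusted p = 0.0144).

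Sources of reactive species and of itaconate also differed between these cultures. Of 13 such genes, of which Nos2 is also an M1 marker here, 5 rose and 0 fell in M1, with Nos2, the inducible nitric oxide synthase, up by 8.34 ± 0.16, Acod1 up by 5.44 ± 0.17 and Cybb, the core of the phagocyte oxidase, up by 1.23 ± 0.21. In M2, 2 of 13 rose and 1 fell: Nos2 rose by 1.504 ± 0.16 and Acod1 by 0.85 ± 0.17, and Cybb fell by 0.69 ± 0.21. In M0 post-sepsis 0 rose and 4 fell, among them Acod1 by 2.88 ± 0.17 and Cybb by 1.96 ± 0.21, while Nos2 did not pass (-0.03 ± 0.16).

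Between M1 and M2 directly, where 15.5% of all genes were higher and 15.4% lower, the glutathione list had 8 of 15 genes higher and 3 lower in M1. Ggct was higher by 4.14 ± 0.24, Gsr by 2.74 ± 0.20 and Glrx by 1.36 ± 0.24. Of the 3 lower, Gpx7 passed the filter on dim probes only through M2. Of 15 regulators 7 were higher and 2 lower, among them Mafg (1.23 ± 0.21), Sqstm1 (1.49 ± 0.30), Keap1 (0.63 ± 0.22, adjusted p = 0.0434) and, lower in M1, Bach1 (-1.05 ± 0.22). Hmox1 did not pass (1.44 ± 0.58, adjusted p = 0.079).

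ATF4, the factor of the amino acid response, also drives Slc7a11. In M0 post-sepsis, 15 of the 20 ATF4 genes tested rose and 2 fell, with a median change of 2.38 where the median of all genes was 0.05. Slc6a9 rose by 4.20 ± 0.23, Psat1 by 3.82 ± 0.21 and Slc7a5 by 3.69 ± 0.28. Slc7a11 was above background on 1 of 4 of those arrays. In M1, where Slc7a11 was highest, 7 of 19 ATF4 genes rose and 2 fell, with Trib3 (3.92 ± 0.23), Ddit4 (3.75 ± 0.23) and Atf4 itself (2.19 ± 0.18) the largest rises and Psat1 down by 1.21 ± 0.21.

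**Figure D3:**
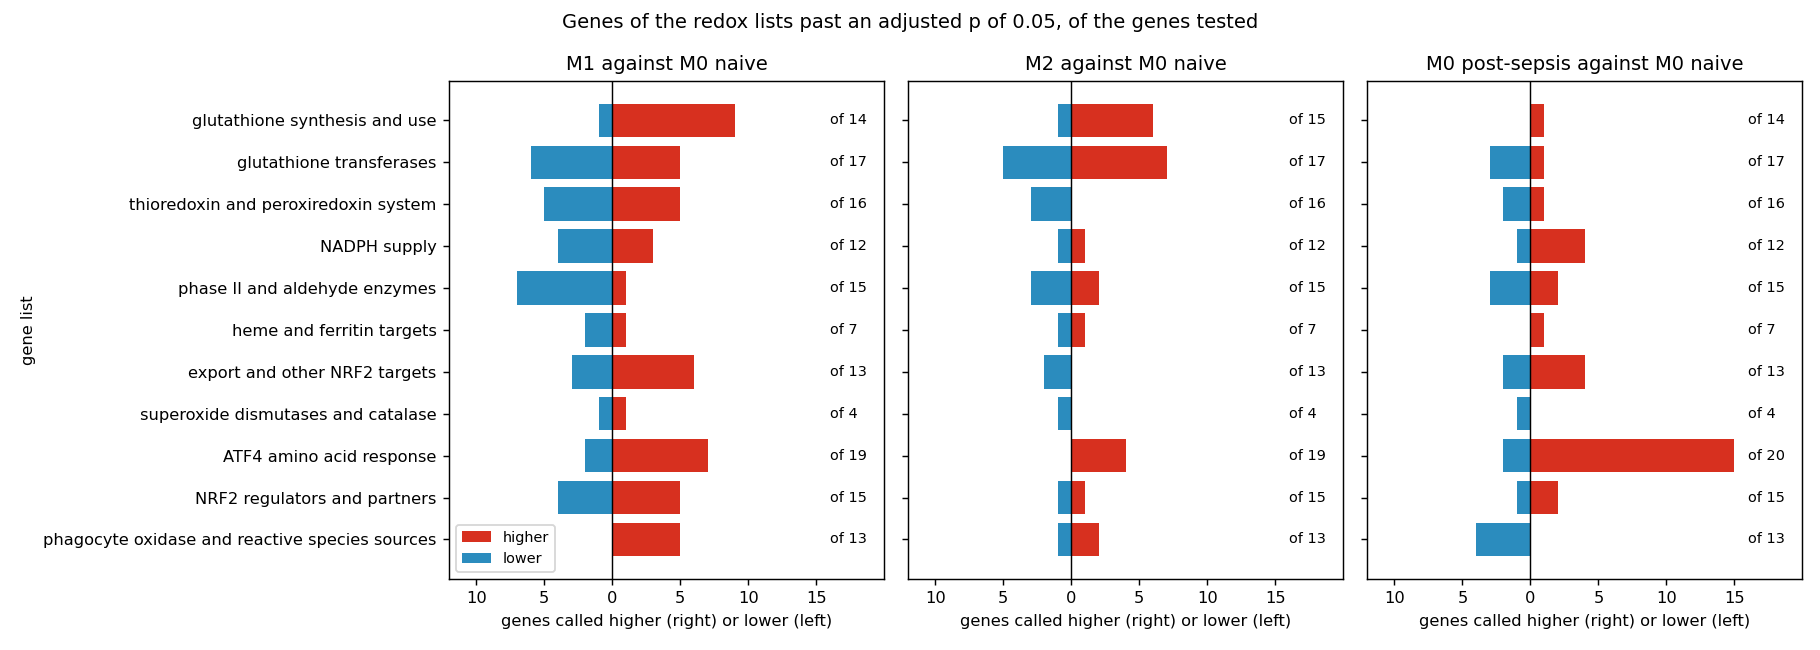
Number of genes called higher (red, right) or lower (blue, left) at an adjusted p under 0.05 in 11 lists (y axis) in M1, M2 and M0 post-sepsis cultures, each against M0 naive; the number tested stands at the right. Glutathione synthesis and use had 9 of 14 higher in M1, and the ATF4 list 15 of 20 higher in M0 post-sepsis. Of all genes, 13.1% were called higher in M1 and 5.98% in M0 post-sepsis.

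The tumour arrays carried markers of several cell types. The 7 melanocyte markers averaged 6.95 to 7.15 on TAM post-sepsis arrays and 6.45 to 7.13 on TAM naive arrays, against -3.12 to -1.92 on M0 post-sepsis and -2.99 to -2.52 on M0 naive arrays. The 12 macrophage markers averaged -0.34 to 0.80 in TAM post-sepsis and 0.42 to 1.01 in TAM naive, against 3.63 to 4.40 in M0 post-sepsis and 5.06 to 5.18 in M0 naive. Of 11 macrophage markers tested, 10 were lower in TAM than in the matching M0 in both comparisons, and Itgam did not pass in either (1.63 in TAM naive and 0.21 in TAM post-sepsis). The 8 fibroblast markers averaged 3.26 to 5.58 in TAM post-sepsis and 3.22 to 5.18 in TAM naive, and at most -3.31 in the cultures. In TAM naive against M0 naive, 8 of 9 T and NK cell markers, 4 of 7 B cell markers and 5 of 5 erythroid markers were higher. In TAM post-sepsis against M0 post-sepsis these counts were 1 of 7, 0 of 7 and 5 of 5. Of all genes, 15.1% were higher and 20.5% lower in TAM naive, and 16.4% and 27.7% in TAM post-sepsis. Some of these markers passed the filter on dim probes only through TAM, where they were high. Hbb-bt was well above background on 3 TAM naive and 0 M0 naive arrays, and Cd3g on 3 and 1. The part of these other cells in the results that follow was not tested.

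**Figure D4:**
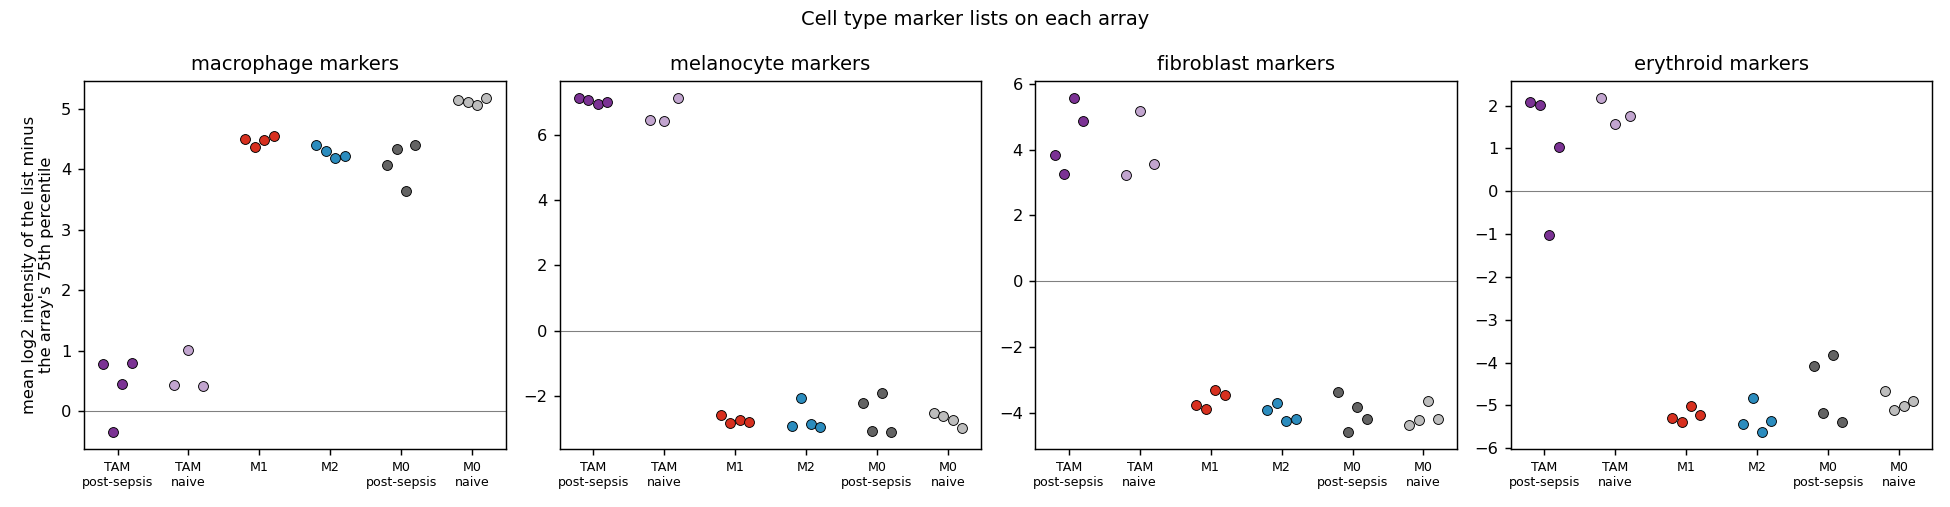
Mean level of the macrophage, melanocyte, fibroblast and erythroid marker lists on each of the 23 arrays (y axis, log2 intensity minus the array's 75th percentile; x axis, the 6 groups; 1 point per array). The melanocyte list lies between 6.45 and 7.15 on TAM arrays and at or below -1.92 on all culture arrays.

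In TAM naive against M0 naive, 4 of the 7 members tested were lower, 0 were higher and 3 did not pass, where 35.6% of 30666 genes were called, 20.5% lower and 15.1% higher. Nfe2l2 was at 2.52, 3.33 and 3.04 in TAM naive, against 5.41, 5.23, 5.03 and 5.62 in M0 naive, a change of -2.36 ± 0.25 (adjusted p = 1.64e-07). Gclm was at -2.61, -3.19 and -0.97 in TAM naive, all below the M0 naive arrays, and changed by -2.24 ± 0.39 (adjusted p = 9.99e-05). Srxn1, at 2.63, 3.38 and 3.03 in TAM naive, changed by -1.90 ± 0.23 (adjusted p = 9.37e-07). Within the 3 slides these changes kept their direction, with Nfe2l2 between -2.89 and -1.90, Gclm between -3.00 and -1.05 and Srxn1 between -2.44 and -1.57.

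Prdx1 was at 5.36, 5.22 and 6.07 in TAM naive, also below every M0 naive array, with a change of -1.69 ± 0.26 (adjusted p = 2.27e-05). Its other probe did not pass (-0.40 ± 0.21, adjusted p = 0.146), so the fall rests on 1 of 2 probes. Txnrd1 (-0.26 ± 0.23) and Gclc (0.34 ± 0.22) did not pass.

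Nqo1 was at -3.91, 1.87 and -3.06 in TAM naive, and the first of these was not well above background. A single array, replicate 3, was thus higher than any other array of the study, and the other 2 lay around the M0 naive levels. The fitted change of 1.69 ± 0.79 did not pass (adjusted p = 0.107), and without replicate 3 it was -0.09 ± 0.31. It passed without replicate 1 (2.80 ± 0.75, adjusted p = 0.00686) and without replicate 4 (2.38 ± 0.86, adjusted p = 0.0401), so the value rests on replicate 3.

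In TAM post-sepsis against M0 post-sepsis, 4 of 7 members were again lower, 0 were higher and 3 did not pass, where 44.1% of 29930 genes were called, 27.7% lower and 16.4% higher, and the median of all genes was -0.36. Srxn1 was at 2.94, 3.25, 3.69 and 3.29 in TAM post-sepsis, against 4.63, 5.37, 4.54 and 5.15 in M0 post-sepsis, a change of -1.63 ± 0.21 (adjusted p = 2.53e-06). Nfe2l2 was at 3.42, 3.16, 3.50 and 3.57 in TAM post-sepsis, against 4.29, 4.99, 3.92 and 4.98 in M0 post-sepsis, and changed by -1.13 ± 0.23 (adjusted p = 5.62e-04). Neither gene's groups overlapped, and within slides 2 and 3 Srxn1 changed by -0.90 and -2.01 and Nfe2l2 by -0.60 and -1.82.

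Gclm (-0.93 ± 0.36, adjusted p = 0.044) and Prdx1 (-0.69 ± 0.24, adjusted p = 0.0269) passed too, but each call was lost under several omissions. Gclm was at -1.23, -1.32, -0.95 and -0.84 in TAM post-sepsis, against -0.51, 0.43, -0.999 and 0.47 in M0 post-sepsis, and the ranges overlapped. Its call was lost without any 1 TAM post-sepsis array or M0 post-sepsis replicate 2 or 4 (adjusted p-values of 0.0525 to 0.121). That of Prdx1 was lost without TAM post-sepsis replicate 2 or 4 or M0 post-sepsis replicate 2 or 4 (0.0585 to 0.0924). With the slide as a block the adjusted p was 0.108 for Gclm and 0.0647 for Prdx1. Within slides 2 and 3, Gclm differed by -0.19 and -1.77 and Prdx1 by -0.065 and -1.35. Prdx1's other probe changed by -0.21 ± 0.19 (adjusted p = 0.394). Nqo1 (-0.39 ± 0.73), Txnrd1 (-0.13 ± 0.22) and Gclc (-0.16 ± 0.21) did not pass.

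Of the regulators, 5 of 16 were lower and 3 higher in TAM naive against M0 naive, and 6 of 14 lower and 3 higher in TAM post-sepsis against M0 post-sepsis. Of all genes, 20.5% were lower and 15.1% higher in TAM naive, and 27.7% and 16.4% in TAM post-sepsis. Bach2, among the 3 higher in TAM naive, passed the filter on dim probes only through TAM. Bach1 changed by -1.89 ± 0.23 in TAM naive and -0.97 ± 0.21 in TAM post-sepsis, and Keap1 by -1.27 ± 0.25 and -0.84 ± 0.23 in the same comparisons. Hmox1 rose in TAM naive (2.39 ± 0.85, adjusted p = 0.0323) and did not pass in TAM post-sepsis (-1.39 ± 0.78, adjusted p = 0.153). Cybb changed by -5.49 ± 0.32 and -3.67 ± 0.29, beside the lower macrophage markers. The glutathione list was split in both, with 4 of 16 higher and 4 lower in TAM naive and 7 of 17 higher and 4 lower in TAM post-sepsis. Those higher include Gpx7 and Gpx8 in both comparisons and Ggt1 in TAM post-sepsis, which passed the filter on dim probes only through TAM.

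TAM post-sepsis was set against TAM naive, the comparison that gave the series its title. Of the 7 members tested 0 passed, where limma called 0% of 28973 genes and 10992 had an unadjusted p under 0.05. Without TAM post-sepsis replicate 2, 9866 genes were called, still with 0 members. Gclm measured 1.17 ± 0.50 (adjusted p = 0.128) and Prdx1 0.74 ± 0.26 (adjusted p = 0.113). Prdx1 was at 6.44, 6.10, 6.43 and 6.18 in TAM post-sepsis, against 5.36, 5.22 and 6.07 in TAM naive, without overlap. Its other probe did not pass (0.37 ± 0.23, adjusted p = 0.244), and on that probe the ranges overlapped. Gclm overlapped through the -0.97 of TAM naive replicate 4. With the slide as a block, Gclm (1.26 ± 0.40, adjusted p = 0.0481) and Prdx1 (0.77 ± 0.22, adjusted p = 0.0368) passed, in a fit that called 10124 of all genes. Gclm differed by 2.16, 0.02 and 1.29 within slides 1, 2 and 3, and Prdx1 by 1.09, 0.37 and 0.74. Nfe2l2 (0.45 ± 0.25), Txnrd1 (0.45 ± 0.21), Srxn1 (0.27 ± 0.27) and Gclc (-0.11 ± 0.26) did not pass in either fit, although the Txnrd1 arrays did not overlap. Nqo1 measured -0.95 ± 1.24, and 0.83 ± 0.30 without TAM naive replicate 3. Slc7a11 was above background on 1 of 4 TAM post-sepsis and 2 of 3 TAM naive arrays and was not tested. In the 11 redox and regulator lists 0 genes passed. The 8 B cell markers averaged -3.80 to -1.50 in TAM post-sepsis, against -0.88 to 0.95 in TAM naive, and the 11 T and NK cell markers -3.14 to -1.73 in TAM post-sepsis, against -1.39 to -0.52 in TAM naive. Neither list's arrays overlapped between the groups. The 10 neutrophil markers averaged -1.19 to 0.81 in TAM post-sepsis, against 0.74 to 2.22 in TAM naive, which overlapped. None of these markers passed on its own, with median changes of -2.65 (B cell), -1.72 (T and NK cell) and -1.58 (neutrophil), and their part in the values of the members was not tested.

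**Figure D5:**
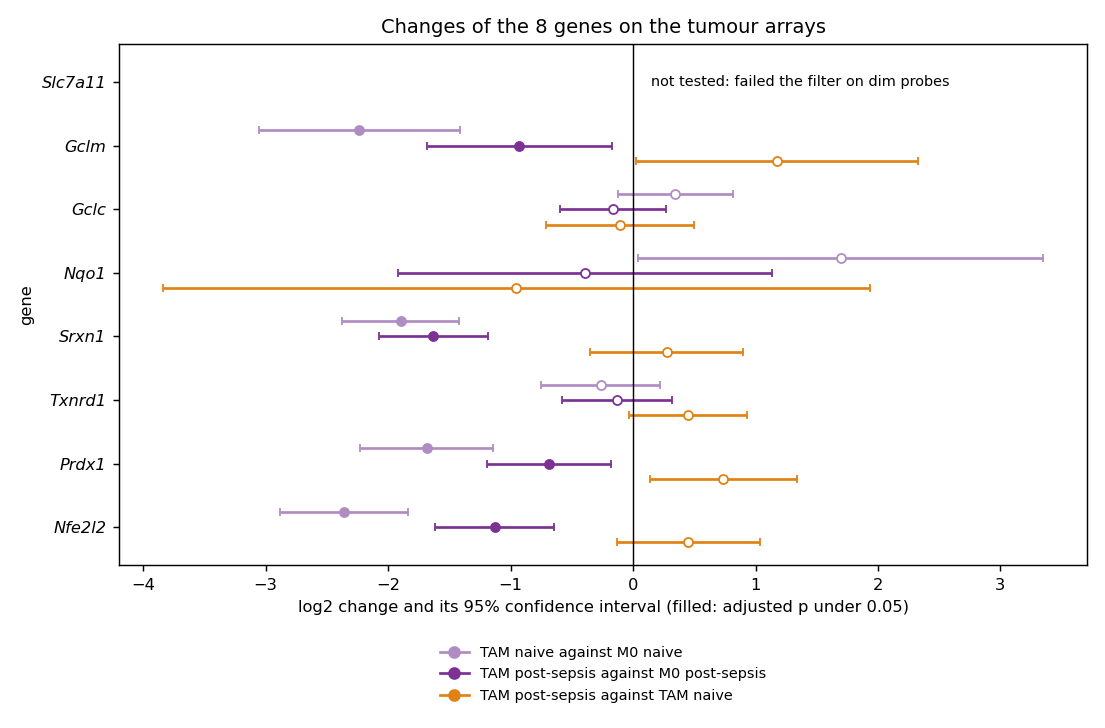
Log2 change (x axis) of 7 of the 8 genes (y axis) in TAM naive against M0 naive, TAM post-sepsis against M0 post-sepsis and TAM post-sepsis against TAM naive, with 95% confidence intervals. Filled points have an adjusted p under 0.05, and Slc7a11 failed the filter on dim probes and was not tested. Gclm, Srxn1, Prdx1 and Nfe2l2 are lower in TAM in both comparisons with M0. In TAM post-sepsis the calls of Gclm and Prdx1 were lost under several alternatives, and the other Prdx1 probe passed in neither comparison. The interval of Nqo1 spans -3.84 to 1.93 between the TAM groups.

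The sepsis effect in TAM minus that in M0 was tested as an interaction. Of 7 members, 1 passed, where 5.99% of 31820 genes were called, 3.61% higher and 2.38% lower, and 60.3% of the calls were higher against 71.4% with quantile scaling. Nfe2l2 measured 0.45 in TAM and -0.78 in M0, and the difference was 1.23 ± 0.34 (adjusted p = 0.0392). Within slides 2 and 3 the difference was 1.68 and 1.06. Adjusted p-values ran between 0.0165 and 0.141 over the 15 omissions of a single array, and the call was lost without TAM post-sepsis replicate 1, 3 or 4, TAM naive replicate 1, M0 post-sepsis replicate 1 or 3, or M0 naive replicate 1, 2 or 4. It was lost too with the slide as a block (adjusted p = 0.054). Prdx1 (0.999 ± 0.36), Gclm (1.31 ± 0.54) and Nqo1 (-2.08 ± 1.08) had adjusted p-values of 0.0946, 0.132 and 0.205. The other probe of Prdx1 measured 0.19 ± 0.28 (adjusted p = 0.652). In the same test 2 of 7 B cell markers and 5 of 9 T and NK cell markers were lower and 4 of 11 macrophage markers higher, and their part was not tested.

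Over the 6 groups, the order of levels set Gclc apart. Gclc means ran only between 2.58 ± 0.33 in M0 post-sepsis and 2.16 ± 0.07 in M2, and each group overlapped the next. Slc7a11, Gclm, Srxn1, Txnrd1 and Prdx1 were highest in M1 (SD of 0.13 to 0.28), without overlap with the next group. Nfe2l2 was highest in M0 naive (5.32 ± 0.25), then M2 (4.68 ± 0.18), M0 post-sepsis (4.54 ± 0.53), M1 (4.12 ± 0.17), TAM post-sepsis (3.41 ± 0.18) and TAM naive (2.96 ± 0.41). In that order M2 overlapped M0 post-sepsis, M0 post-sepsis overlapped M1, and TAM post-sepsis overlapped TAM naive. Nqo1 had its highest means in M2 and M1, whose arrays overlapped and whose difference did not pass. Its mean was lowest in M0 naive (-3.39 ± 0.13), but that place rests on TAM naive replicate 3, since the other 2 TAM naive arrays were at -3.91 and -3.06.

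Across the 23 arrays, which share group, slide and source, Prdx1, Gclm and Srxn1 followed each other most closely, with Pearson correlations of 0.94 (Gclm and Prdx1), 0.91 (Srxn1 and Prdx1) and 0.91 (Gclm and Srxn1). Nqo1 correlated with these 3 at 0.19 to 0.37, Gclc with the other members at -0.29 to 0.20, and Nfe2l2 with Prdx1 at 0.43. All correlations of Nqo1 include TAM naive replicate 3, where Nqo1 was at 1.87 and Gclm at -3.19. On the other TAM naive arrays Nqo1 was at -3.91 and -3.06. Correlations without replicate 3 were not computed, so how closely Nqo1 follows other genes is uncertain. The genes most like each member, of 32392 compared, included Usb1 for Gclm (0.98), Esd for Srxn1 (0.98), Pgam5 for Txnrd1 (0.97), Isca2 for Prdx1 (0.98) and Oxsm for Nfe2l2 (0.98). For Nqo1 they were H2-Eb1 (0.77), Cd74 (0.76) and H2-Ab1 (0.75), genes of antigen presentation. For Slc7a11 they were Tarm1 (0.95), Socs1 (0.95) and AA467197 (0.94), and for Gclc Rfx1 (0.79). These are descriptions of likeness over groups that differ in cell source.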

How the data were processed

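Each deposited scanner file held the spot intensity values of 1 array, which per the file headers had been corrected by spatial and multiplicative detrending in Agilent Feature Extraction (version 10.7.3.1 in the headers, 12.5 per the submitters' processing notes), with probes placed on mm9. The headers name no scaling of the intensity between arrays. From these values log2 intensity minus each array's 75th percentile was computed, spots of a probe were averaged, and 1 probe per gene was used, the one with the highest mean. RefSeq accessions and symbols gave the names. Genes entered a test when 3 or more arrays of either group showed their probe well above background. The 75th percentile lay between 236.5 and 693.6 intensity units over 23 arrays, no spot was saturated, and the number of arrays limits the precision.

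Tests used limma 3.58.1 in R 4.3.3 (lmFit and eBayes, two-sided, Benjamini-Hochberg over all genes tested). The comparisons among cultures shared a fit of 16 arrays, the comparison between TAM groups used 7 arrays, and those of TAM with M0 used 23. The steps were tested on simulated data. Alternatives were quantile scaling, normexp background (offset 50), no filter, a stricter filter, the mean of probes, slide or replicate number as a block, single arrays left out, and other sets of arrays. The 8 members and the 11 other lists were chosen with earlier results of these data known. Besides members, 8 genes (Keap1, Bach1, Mafg, Hmox1, Sqstm1, Acod1, Nos2, Cybb) and up to 3 called genes with the largest rise and 3 with the largest fall per list could be named. The authors' value table was not used here. Replicates are the separate samples that the labels list.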

Additional observations from a re-analysis of the deposited data

Results flagged for a closer look

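With 45 sets of 4 arrays examined (9 probes in the 5 groups of 4), 3 held an array whose gap to the nearest other array, divided by the range of the 4, exceeded Dixon's 95% critical value, and chance flags about 1 in 20. Gclc was at 3.07 in M0 post-sepsis replicate 2, above the other 3 arrays of its group, and at 2.27 in M2 replicate 3. Slc7a11 was at -2.96 in M0 post-sepsis replicate 4, the only array of its group where the probe was well above background. Nfe2l2 was also singled out, because its sepsis effect differed between TAM and M0 by 1.23 in the test of that difference.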

How the results depend on the processing

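Of 25 member changes past the threshold, 20 kept their direction and their side of it in all alternatives run, and 0 changed direction; 2 of the 20 are those of Slc7a11 against M0 naive, which entered through M1 or M2 alone. The 5 that did not were Nqo1 and Nfe2l2 in M0 post-sepsis, Gclm and Prdx1 in TAM post-sepsis against M0 post-sepsis, and the interaction of Nfe2l2. The counts of members called in M1 against M0 naive (7), M2 against M0 naive (2) and M1 against M2 (5) were the same without any single array. In TAM post-sepsis against TAM naive, 0 members stayed at 0 without any single array, 2 passed with the slide and 1 (Gclm) with the replicate block, and the count of all genes was 10124, 9930 and, over omissions, 0 to 9866, the last without TAM post-sepsis replicate 2. In M0 post-sepsis the members called were 1 with quantile scaling, 1 without a filter, 0 with only the compared groups (1637 of all genes) and 1 to 2 over omissions. In TAM post-sepsis against M0 post-sepsis they were 2 with the slide, 2 with only the compared groups (7432 of all genes) and 2 to 4 over omissions. The interaction had 0 members without a filter, with the slide, with TAM naive replicate 2 included and with only the compared groups, and 0 to 3 over omissions, 3 without TAM naive replicate 4 and 2 without M0 post-sepsis replicate 4. Its count of all genes, 1905, was 3152 with quantile scaling, 769 with TAM naive replicate 2, 517 with only the compared groups and 952 to 5930 over omissions. That count was over 1.5 times higher without TAM post-sepsis replicate 2, TAM naive replicate 4 or M0 post-sepsis replicate 2 or 4, and over 1.5 times lower without TAM post-sepsis replicate 3, TAM naive replicate 1 or 3, M0 post-sepsis replicate 1 or M0 naive replicate 2 or 4. Quantile scaling moved the median of all genes by 0.155 in TAM post-sepsis against M0 post-sepsis, by 0.105 between TAM groups, by -0.105 in TAM naive against M0 naive and by 0.257 in the interaction (normexp: -0.011, -0.123, 0.101 and -0.128), where 71.4% in place of 60.3% of calls were higher. TAM naive against M0 naive kept its 4 calls in all alternatives run and gained Gclc with quantile scaling (0.69) and Nqo1 with normexp (1.46) or without TAM naive replicate 1 or 4. Values not past the threshold that changed sign were Gclc with TAM naive replicate 2 included (0.64 between TAM groups, -0.40 in TAM naive against M0 naive, 0.24 in the interaction), Srxn1 in M0 post-sepsis (-0.016 with quantile scaling, -0.041 with the slide) and Txnrd1 with quantile scaling (0.11 in TAM naive, 0.019 in TAM post-sepsis, -0.093 in the interaction). Omissions gave -2.06 to 0.83 for Nqo1 between TAM groups and -0.09 to 2.80 in TAM naive against M0 naive, -0.34 to 0.15 for Gclm and -0.14 to 0.14 for Srxn1 in M0 post-sepsis, -0.15 to 0.07 for Gclc and -0.08 to 0.11 for Prdx1 in M2, and -0.27 to 0.006 and -0.02 to 0.27 for Txnrd1 in TAM post-sepsis against M0 post-sepsis and the interaction. The cause of these changes was not tested. Replicate numbers were not used as pairs in the main fits. Same-numbered deviations correlated at -0.525 to 0.681, over 0.1 in 3 of 4 pairs at most. So few pairs cannot show whether the numbers pair the samples. Apart from Gclm the replicate block changed no call of a member, although it called 9930 of all genes between TAM groups. Against M0 naive, the lowest Nqo1 changes over all alternatives were 1.33 in M1, 1.59 in M2 and 0.696 in M0 post-sepsis. Over omissions alone they were 2.34, 2.62 and 1.01. Signal over background limits Slc7a11 outside M1 and M2.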
